A study of Mus musculus with 32 samples.

Results

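Transcripts of 35 genes of the peroxisome were followed across 32 mouse arrays: 13 peroxins, the PEX proteins that build the organelle, and 22 enzymes and membrane transporters of peroxisomal lipid metabolism. The genes were chosen by symbol as a functional module, and each was read from 1 probe, the one with the highest mean where several were present. A probe was found for 34 of the 35, out of 20659 genes with a named probe. Far1, the fatty acyl-CoA reductase of ether lipid synthesis, was matched to no probe and was not analysed here. All 34 were well above background on at least 4 arrays, as were 14857 genes of the whole series, and 31 of the 34 were well above background on all 32 arrays. The exceptions were Acot4 (16 arrays, all from mice), Abcd2 (19 arrays) and Pex14 (8 arrays, all from mice at room temperature).

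The 8 groups held 4 one-colour arrays each, all of strain C57Bl/6 and all named preadipocytes in the labels. In culture, at room temperature, they were cells with Pparg knockdown and their controls, and cells with Gyk knockdown and their controls. From mice they were animals labelled Pparg knockout and Pparg controls, in the cold and at room temperature. Gyk is glycerol kinase, listed as Gk in the gene table. The labels refer to an earlier paper for growth and treatment. Age, the temperature in degrees, how knockdown or knockout was made and in which cells, and whether the 4 samples of a group were separate cultures or animals are not given in the sources used here. The p-values therefore rest on the spread among the arrays of a group, and that spread may be technical. A level below is the log2 signal of a probe minus the 75th percentile of its array. A change is the difference of 2 group means on that scale with its standard error from limma, and a gene rose or fell where its Benjamini-Hochberg adjusted p was under 0.05.

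Peroxisomes shorten very long, branched and dicarboxylic fatty acids, pass shortened acyl groups on to mitochondria, break down the hydrogen peroxide that this produces, and make the first intermediates of ether lipids. Peroxins place membrane proteins in the organelle (PEX3, PEX16 and PEX19), bind enzymes that carry a targeting signal (PEX5 and PEX7), bring them through a docking and ubiquitin ligase complex (PEX13, PEX14, PEX2 and PEX10), return the receptor (PEX6, held by PEX26) and elongate the membrane for division (PEX11 proteins). Brown fat is rich in peroxisomes. Many of these genes are known targets of the peroxisome proliferator-activated receptors, which bind with RXR to a direct repeat of AGGTCA with 1 base between the copies.

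Promoter windows from RefSeq (GRCm38.p6, 300 bases across a start site) were at hand for 29 of the 35 genes. The repeat of AGGTCA, any base N and AGGTCA again, searched on both strands with up to 2 mismatches, was found in the windows of 3 of the 29 genes (10.3%), against 4.4% of 27025 genes in the table and 3.86% of 32851 windows. With up to 1 mismatch it was found for 0 of the 29 genes, against 0.644% of all genes. AGGTCA alone, which lies inside the repeat in the windows of Cat and Acot4, was found for 5 of the 29 genes (17.2%), against 18.1% of all genes. The windows with a repeat are shown because they belong to catalase, to a thioesterase measured only in mice and to the oxidase with the largest change in the Gyk experiment. Capitals mark the repeat, whose letters read AGGTCAGAGAACA in Cat, CGGCCAAAGGTCA on the opposite strand in Acot4 and AGGACAGAGGTGA in Acox2. The Cat window is chr2:103485104-103485403 on the minus strand, the Acot4 window is chr12:84038129-84038428 on the plus strand, and the Acox2 window, window 2 of that gene, is chr14:8258790-8259089 on the minus strand.
Cat: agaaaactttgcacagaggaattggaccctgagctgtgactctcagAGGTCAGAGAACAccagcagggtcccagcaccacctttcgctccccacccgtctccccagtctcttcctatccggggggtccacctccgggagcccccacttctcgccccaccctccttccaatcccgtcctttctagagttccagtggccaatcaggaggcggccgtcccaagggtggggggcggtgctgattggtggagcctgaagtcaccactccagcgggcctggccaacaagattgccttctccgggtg
Acot4: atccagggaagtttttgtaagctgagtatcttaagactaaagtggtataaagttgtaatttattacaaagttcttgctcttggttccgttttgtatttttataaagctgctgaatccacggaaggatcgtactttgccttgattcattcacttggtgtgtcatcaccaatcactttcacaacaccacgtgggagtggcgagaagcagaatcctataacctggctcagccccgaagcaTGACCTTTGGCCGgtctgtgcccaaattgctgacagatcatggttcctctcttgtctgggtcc
Acox2: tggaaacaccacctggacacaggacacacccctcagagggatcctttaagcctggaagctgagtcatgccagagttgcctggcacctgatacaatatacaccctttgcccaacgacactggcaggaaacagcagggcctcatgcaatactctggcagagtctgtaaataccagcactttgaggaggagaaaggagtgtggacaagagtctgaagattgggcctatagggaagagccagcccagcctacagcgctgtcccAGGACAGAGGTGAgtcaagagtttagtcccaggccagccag
The windows of Ehhadh, Pex16, Pex11a and Scp2, which had the largest falls after Pparg knockdown, held no such repeat, which says only that these letters are not in these windows.

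The targeted genes were read first. Pparg had levels of 4.10, 4.10, 4.38 and 4.36 in Pparg knockdown cells, against 6.00, 5.97, 6.29 and 6.35 in their controls, and fell by 1.91 on the log2 scale (adjusted p = 8.84e-06). Gk averaged -2.05 ± 0.89 in Gyk knockdown cells and 0.35 ± 0.08 in their controls (SD, n = 4 each), a change of -2.40 ± 0.39 (adjusted p = 0.0118). Gk also fell with Pparg knockdown, by 1.45, while Pparg did not pass the test with Gyk knockdown (-0.18).
In the mice the Pparg transcript went against the label. It averaged 7.96 ± 0.07 in mice labelled Pparg knockout in the cold and 5.84 ± 0.48 in cold controls, and 7.46 ± 0.07 in mice labelled Pparg knockout at room temperature and 5.39 ± 0.13 in room-temperature controls (SD, n = 4 each). The changes were 2.13 and 2.08 (adjusted p = 1.05e-06 and 9.77e-07), with no overlap between groups. Which exons were deleted, and where the only Pparg probe lies relative to them, are not given in the sources used here, so this probe does not check the label. Whether the labels were exchanged, which would turn every direction in mice, was not tested, and every direction in mice below is drawn from arrays as labelled.

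The adipocyte markers Adipoq, Fabp4, Plin1, Lpl, Cfd and Cd36 were well above background on every array, although the labels say preadipocytes. Their summed linear level, as a multiple of the array's 75th percentile, was 517 to 638 in Pparg knockdown cells and 1060 to 1330 in their controls, 1260 to 1680 in mice labelled Pparg knockout in the cold and 1890 to 2490 in cold controls, and 941 to 1040 in mice labelled Pparg knockout at room temperature and 1570 to 1990 in controls. The sum of 7 preadipocyte and fibroblast markers was 20.1 to 23.9 in Pparg knockdown cells and 13.3 to 16.3 in their controls, 35.7 to 51.2 in mice labelled Pparg knockout in the cold and 25.5 to 29.6 in cold controls, and 26.3 to 45.4 in mice labelled Pparg knockout at room temperature and 36.4 to 44.6 in controls, where the ranges overlapped. The sum of 4 macrophage markers was 22.1 to 34.8 in mice labelled Pparg knockout in the cold and 12.8 to 16.5 in cold controls, and 10.6 to 13.4 in mice labelled Pparg knockout at room temperature and 6.57 to 10.5 in controls. The sum of 4 endothelial markers was 8.72 to 11.1 in mice labelled Pparg knockout at room temperature and 12.6 to 18.4 in controls. In the cold it was 6.69 to 7.63 in mice labelled Pparg knockout and 6.68 to 7.38 in controls, where the ranges overlapped. With Gyk knockdown 4 of 6 brown adipocyte markers fell, where 4.11% of all genes fell. Their sums were 565 to 820 in knockdown cells and 800 to 974 in controls. None of the 6 adipocyte markers passed the test there, with sums of 1240 to 1550 in knockdown cells and 1230 to 1490 in controls. Of these adipocyte markers, 5 of 6 fell with Pparg knockdown, where 16% of all genes fell. In mice labelled Pparg knockout 4 fell and 1 rose in the cold, where 22.4% of all genes fell and 15.9% rose. At room temperature 3 of 6 fell and none rose, where 19.7% of all genes fell. Of the brown adipocyte markers, 4 of 5 tested fell with Pparg knockdown, where 16% of all genes fell. In mice labelled Pparg knockout 3 of 6 fell in the cold and 5 at room temperature, against 22.4% and 19.7% of all genes. In bulk RNA fewer cells of a type and less RNA per cell cannot be told apart, and the part of these shifts in the results below was not tested. Cold control arrays 1 and 2 stood apart by skeletal muscle markers, summed at 109 and 133, against 0.0777 to 16.3 on the other mouse arrays. In mice labelled Pparg knockout, array 4 in the cold had 16.3 and array 1 at room temperature had 15.2. The sum of 3 hepatocyte markers was 0.141 to 3.79 in room-temperature controls and 0.0616 to 1.2 in mice labelled Pparg knockout there. In the cold it was 0.0361 to 0.0546 and 0.0335 to 0.0773, with no marker well above background. Gyk knockdown arrays 3 and 4 had the lowest 75th percentiles of signal in the series, at 141 and 246, against up to 806 elsewhere. Their preadipocyte and fibroblast sums were 7.36 and 6.75, against 18.5 to 24.2 on the other arrays of that experiment, and their endothelial sums were 9.1 and 5.11, against 1.37 to 2.86.

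Pparg knockdown lowered most of the peroxisome genes that could be tested. Of 32, 21 fell and 1 rose, where 34.1% of 12844 genes were called, 16% fell and 18.1% rose. The median change of the 32 was -0.54, against 0.03 over all genes tested. The groups did not overlap for 22 of the 32, 21 of them lower, where 35.9% of all genes tested had groups without overlap and 17.1% were lower on every array. On the separate slides 31 of the 32 had the same sign, 28 of them lower. With the replicate number as a block 27 fell and 2 rose, and that fit called 7407 of all genes tested. Both classes took part: 9 of 12 peroxins fell (median -0.62), and 12 of 20 enzymes and transporters fell while 1 rose (median -0.515).

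**Figure D1:**
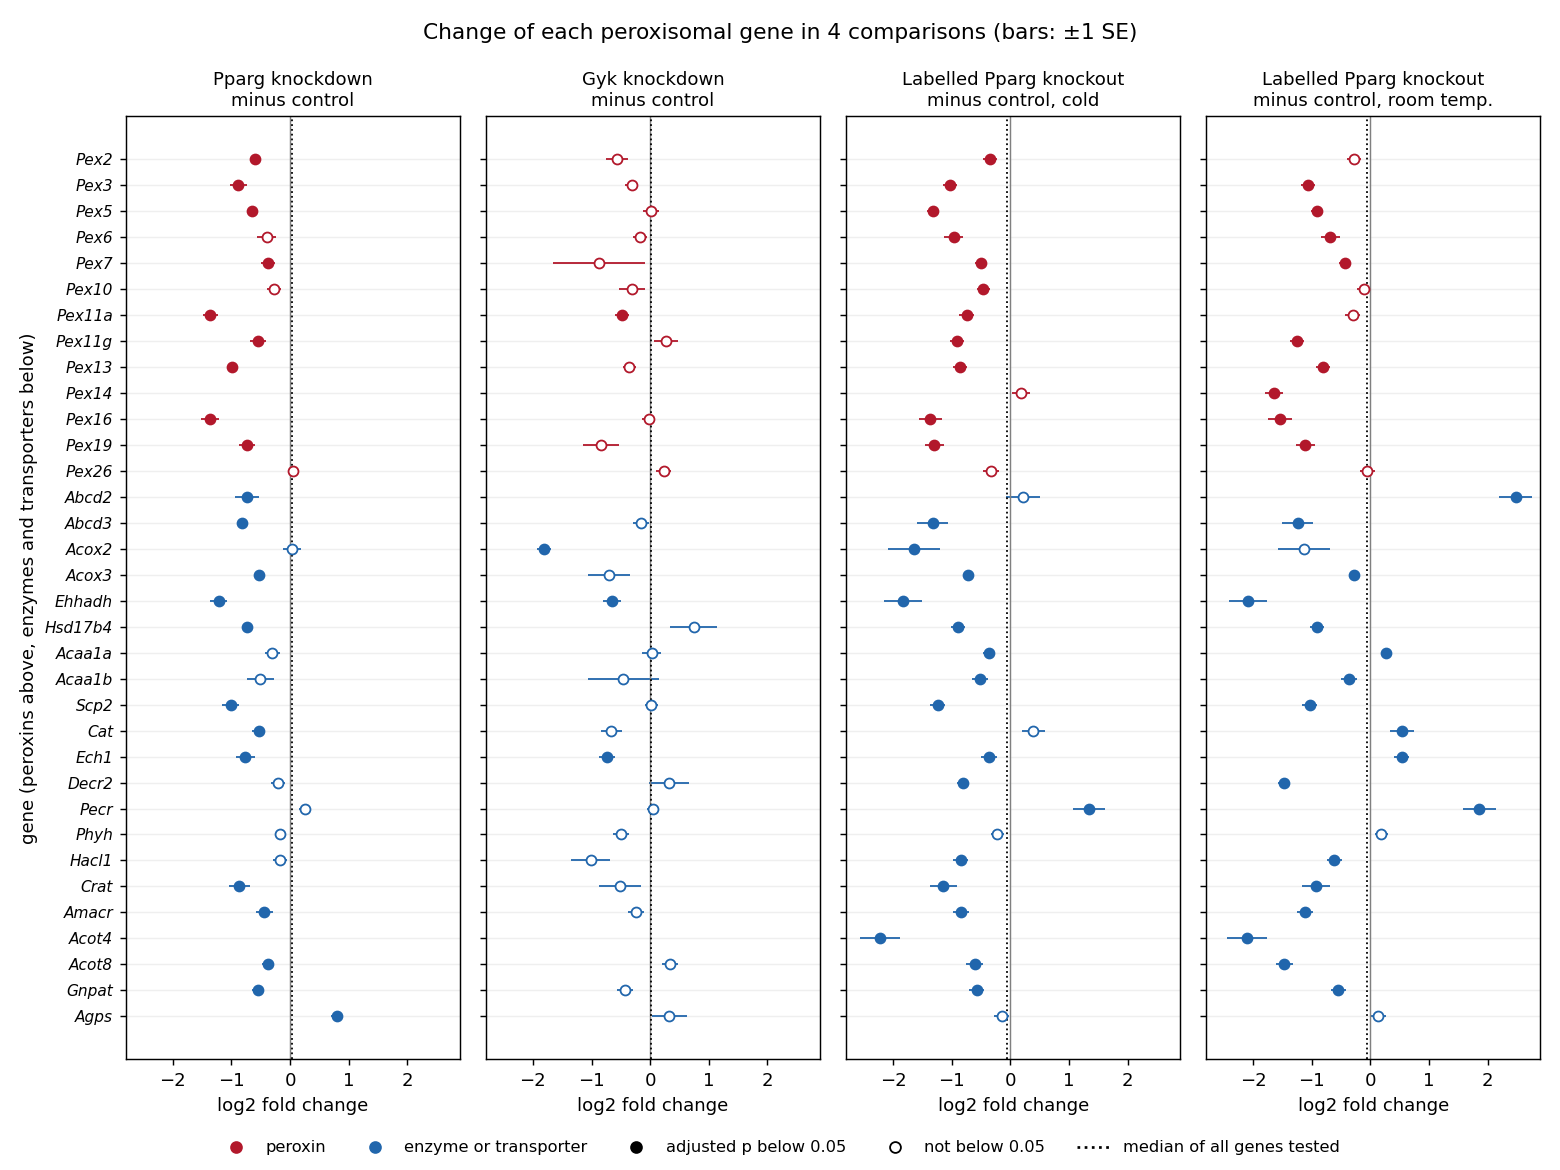
Log2 fold change (x axis, with the standard error as a bar) of each gene (y axis) in 4 comparisons, with peroxins above and enzymes and transporters below, filled points for adjusted p below 0.05 and a dotted line at the median of all genes tested. Pparg knockdown shows 21 filled points below 0 and 1 above, Gyk knockdown 4 filled points, and mice labelled Pparg knockout 27 filled points below 0 in the cold and 22 at room temperature.

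Among the peroxins, Pex16 and Pex11a changed most after Pparg knockdown. Pex16, which serves the insertion of membrane proteins, had levels of 1.68, 1.73, 2.07 and 2.06 in knockdown cells, against 3.02, 3.04, 3.42 and 3.52 in controls. All 4 knockdown arrays lay below all controls, and the change was -1.37 ± 0.15 (adjusted p = 0.000198). Pex11a, a membrane elongation factor, had levels of 3.77, 3.74, 4.03 and 4.09 in knockdown cells, against 5.11, 5.10, 5.36 and 5.48 in controls, again without overlap. Its change was -1.36 ± 0.12 (adjusted p = 6.67e-05), a signal 2.56-fold lower. The docking factor Pex13 averaged 1.97 ± 0.08 in knockdown cells and 2.96 ± 0.02 in controls (SD, n = 4 each) and fell by 0.99. Pex3, the membrane anchor that receives PEX19, fell by 0.88 and Pex19, the carrier of membrane proteins, by 0.73.
The import receptors both fell, Pex5 by 0.65 and Pex7 by 0.38 on the log2 scale, but the Pex7 groups overlapped and its call (adjusted p = 0.036) was lost under 7 of 17 alternative settings. Pex2, of the ligase complex, fell by 0.60 and Pex11g by 0.55. Pex6, Pex10 and Pex26 did not pass the test, with changes of -0.40, -0.27 and 0.05. With the replicate number as a block Pex6 and Pex10 were called as falls (adjusted p = 0.000878 and 0.00834), and Pex26 was not. Pex14 was not well above background on any culture array.

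Of the enzymes, Ehhadh, the bifunctional hydratase and dehydrogenase of peroxisomal beta-oxidation, had the largest fall after Pparg knockdown. It had levels of -1.45, -1.33, -0.97 and -1.17 in knockdown cells, against -0.16, -0.26, 0.19 and 0.20 in controls, and changed by -1.22 ± 0.15 (adjusted p = 0.000309). No knockdown array reached the lowest control. The sterol carrier and thiolase gene Scp2 changed by -1.01 ± 0.15 (adjusted p = 0.000989), the carnitine acetyltransferase Crat fell by 0.86, and the transporter Abcd3, known as PMP70, fell by 0.82. The other bifunctional enzyme, Hsd17b4, fell by 0.73. Acox3, a branched-chain oxidase, fell by 0.53 with the probe used, although its other probe differed by -0.05, while Acox2 did not pass the test (0.04).
Catalase fell by 0.54, Ech1, an isomerase that prepares unsaturated chains, by 0.76 and the thioesterase Acot8 by 0.38. The racemase Amacr fell by 0.44, a call lost under 8 of 17 alternatives. Abcd2, a very long chain acyl-CoA transporter, was called at -0.74, but only 1 knockdown and 3 control arrays measured it well above background. The thiolases Acaa1a and Acaa1b, near-identical genes that a probe may not fully separate, did not pass the test (-0.30 and -0.51). Nor did Phyh and Hacl1 of alpha-oxidation (-0.16 and -0.17) or the reductases Decr2 and Pecr (-0.20 and 0.25). The replicate block changed the call of 5 of these 6 genes. Acaa1a, Acaa1b, Phyh and Hacl1 were then called as falls (adjusted p = 0.00667, 0.00552, 0.0215 and 0.0306) and Pecr as a rise (adjusted p = 0.00582), while Decr2 had no call.
The ether lipid pathway split. Agps, which forms the ether bond, had levels of 1.47, 1.49, 1.33 and 1.28 in Pparg knockdown cells, against 0.76, 0.70, 0.39 and 0.51 in controls. Every knockdown array lay above every control, and Agps rose by 0.80 (adjusted p = 0.000479), the only one of the 32 to do so without the replicate block. Gnpat, the acyltransferase that starts the same pathway, changed by -0.55 ± 0.10 (adjusted p = 0.00268), a fall.

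**Figure D2:**
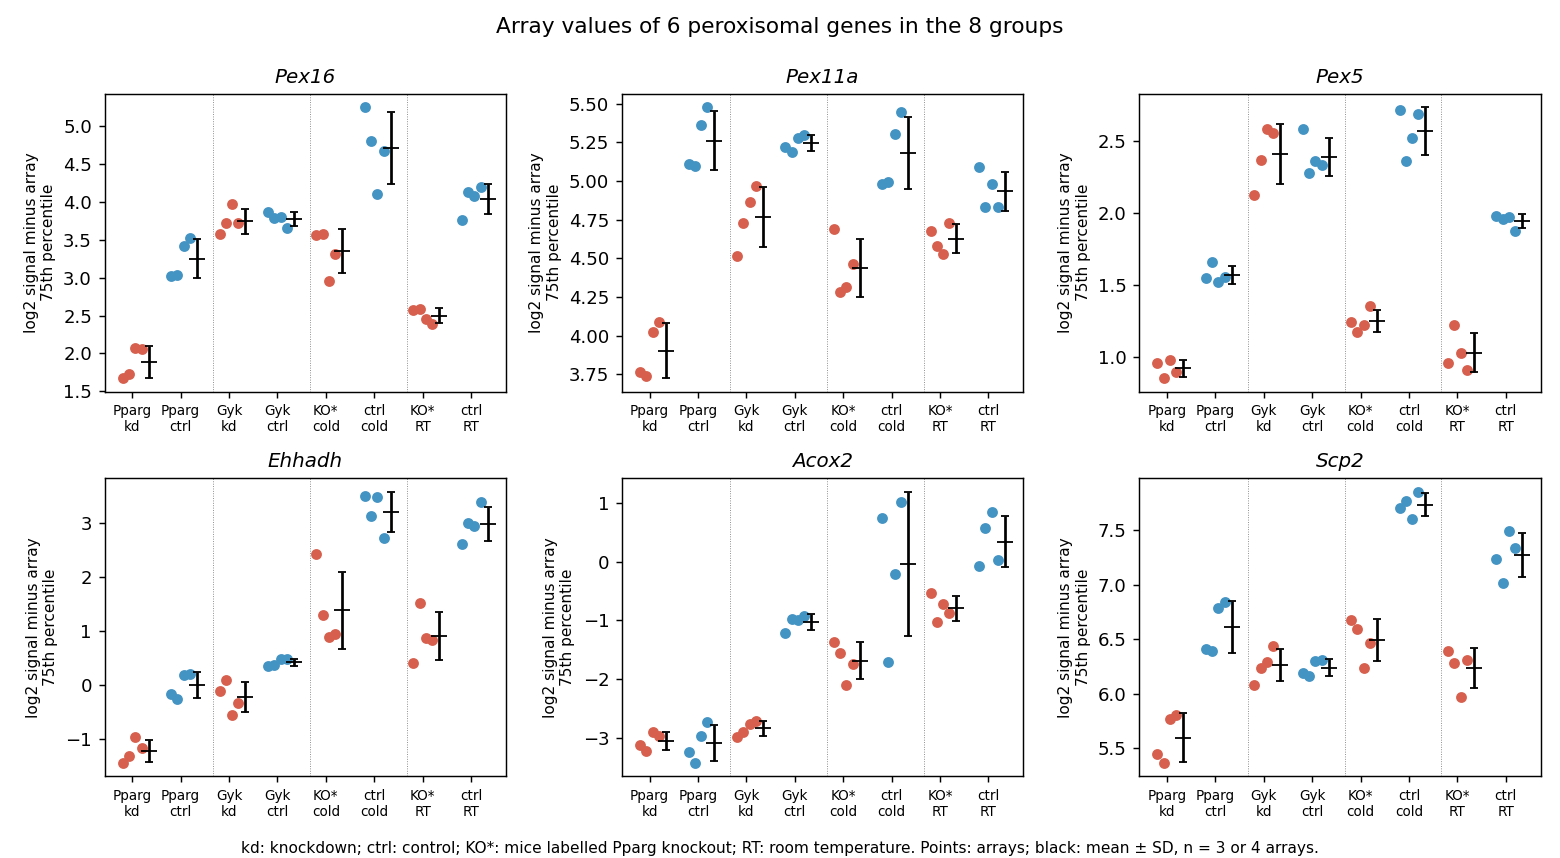
Level (y axis, log2 signal minus the array's 75th percentile) of 6 genes on each array (points) in the 8 groups (x axis), with the mean and SD. Pex16, Pex11a, Pex5, Ehhadh and Scp2 lie lower on every Pparg knockdown array than on its controls, while Acox2 is lower on the Gyk knockdown arrays, at -2.98 to -2.70, than on theirs, at -1.22 to -0.93.

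With Gyk knockdown few of these genes passed the test. Of 31 tested, 4 fell and none rose, where limma called 8.76% of 12219 genes, 4.11% as falls and 4.65% as rises. At an unadjusted limma p under 0.05, 12 were lower and 1 was higher, where 26.7% of all genes tested passed that p. The number of calls was 4 without the low-signal knockdown arrays 3 and 4, 0 without their whole slide (5 lower and 1 higher at an unadjusted p under 0.05, which 18.1% of all genes passed), 6 without knockdown array 2, 2 without knockdown array 3 or control array 2, and 1 without control array 1, 3 or 4. By array ranges, 11 of the 31 were lower on every knockdown array than on every control and 1 was higher, where 22.5% of all genes tested had groups without overlap and 10.9% were lower on every array. The median change of the 31 was -0.32, against 0.02 over all genes, and 17 were lower on both slides. Acox2, a branched-chain acyl-CoA oxidase, had levels of -2.98, -2.89, -2.77 and -2.70 in Gyk knockdown cells, against -1.22, -0.98, -0.99 and -0.93 in controls. The groups did not overlap, and the change was -1.81 ± 0.12 (adjusted p = 0.000271), a signal 3.5-fold lower. Its values on the separate slides were -1.84 and -1.78, but it was -0.82 (adjusted p = 0.0521) with normexp background correction.
Ech1, Ehhadh and Pex11a fell by 0.74, 0.65 and 0.48 (adjusted p = 0.0237, 0.0375 and 0.049), and lost the call under 8 of 19, 10 of 19 and 11 of 19 alternatives. For Ech1 the fit left out control array 2, whose spot was outlying. Ehhadh averaged -0.23 ± 0.28 in knockdown cells and 0.42 ± 0.07 in controls (SD, n = 4 each). Its difference was -0.37 on the slide of arrays 1 and 2 and -0.93 on the slide of the low-signal arrays 3 and 4.
The other 27 genes did not pass the test. Pex7 was at -1.55 on knockdown array 3, against 1.58 or more on the other knockdown arrays, and the fit left out control array 1 as outlying. Acox3 was at 0.32 on knockdown array 4, against 1.79 to 1.97 on the others, and its 2 probes differed in sign, at -0.70 and 0.47. Hacl1, the lyase of alpha-oxidation, had a change of -1.01 ± 0.33 (adjusted p = 0.0954) and Phyh, the hydroxylase before it, of -0.49 (adjusted p = 0.0575).

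The direct test of the Pparg knockdown change against the Gyk knockdown change called 10 of 32 genes, where 12.4% of 13118 genes were called, 6.14% with a negative difference. The difference was negative, that is lower with Pparg knockdown, for 9 of them. It was -1.34 ± 0.20 for Pex16, -1.04 ± 0.19 for Scp2, -0.88 ± 0.18 for Pex11a, -0.71 for Acot8, -0.67 for Abcd3, -0.67 for Pex5 and -0.64 for Pex13, with adjusted p between 0.000317 and 0.00892. Acox2 was the exception, at 1.84 ± 0.20 (adjusted p = 1.83e-05), although with normexp background it was 0.59 (adjusted p = 0.427). The calls of Hsd17b4 (-1.47) and Pex11g (-0.82) were lost under 14 of 26 and 16 of 26 alternatives.

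In mice labelled Pparg knockout most of the genes were lower than in controls at both temperatures. In the cold, 27 of 34 fell and 1 rose, where 38.3% of 14068 genes were called, 22.4% fell and 15.9% rose. The 34 include the peroxin Pex14, which had no call there and was not well above background on any cold array. At room temperature 22 fell and 5 rose, where 34.9% were called, 19.7% fell and 15.2% rose. The medians of the 34 were -0.77 in the cold and -0.75 at room temperature, against -0.05 and -0.06 over all genes. No peroxin rose at either temperature: 11 of 13 fell in the cold (median -0.86) and 9 of 13 at room temperature (median -0.81). Of the 21 enzymes and transporters, 16 fell and 1 rose in the cold (median -0.72), and 13 fell and 5 rose at room temperature (median -0.615). In the cold 26 genes had groups without overlap, 25 of them lower, where 32.2% of all genes had none and 19% were lower on every array. At room temperature 29 had none, 24 of them lower, against 41.4% and 23.1% of all genes. On the separate slides 29 genes were lower on both in the cold and 26 at room temperature. Without cold control arrays 1 and 2, those of high muscle markers, 28 genes were called in the cold, and Ech1 and Acaa1b lost their calls. At room temperature the 75th percentile of signal was 499 to 604 in mice labelled Pparg knockout and 293 to 406 in controls, and the part of this gap in the results was not tested.

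**Figure D3:**
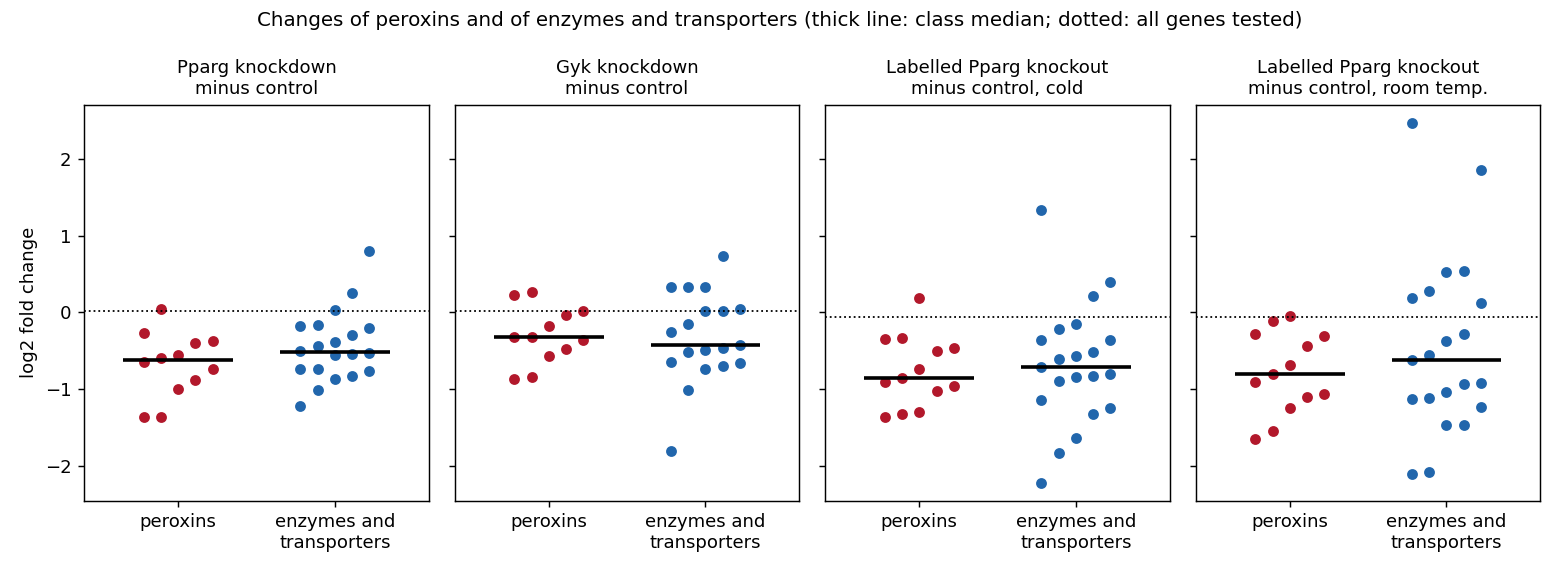
Log2 fold change (y axis) of the peroxins and of the enzymes and transporters in 4 comparisons, 1 point per gene, with the class median as a line and the median of all genes tested as a dotted line. The class medians lie at most 0.193 apart in each panel, and among the enzymes and transporters Abcd2 and Pecr stand highest in mice labelled Pparg knockout at room temperature, at 2.48 and 1.86.

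Acot4, a thioesterase of acyl-CoAs, and Ehhadh had the largest falls at both temperatures. Ehhadh had levels of 2.42, 1.29, 0.89 and 0.94 in mice labelled Pparg knockout in the cold, against 3.51, 3.12, 3.49 and 2.73 in cold controls. At room temperature it had 0.41, 1.51, 0.86 and 0.83 in mice labelled Pparg knockout, against 2.62, 2.99, 2.95 and 3.39 in controls. Groups overlapped at neither temperature. The changes were -1.83 ± 0.32 in the cold (adjusted p = 0.000515) and -2.08 ± 0.32 at room temperature (adjusted p = 0.000186). Acot4, whose probe may also read related thioesterases, changed by -2.22 ± 0.34 in the cold and -2.10 ± 0.34 at room temperature (adjusted p = 0.000196 and 0.000305).
Acox2 had levels of -1.36, -1.55, -2.10 and -1.74 in mice labelled Pparg knockout in the cold, against 0.75, -1.71, -0.21 and 1.01 in cold controls. Control array 2, of high muscle markers, lay inside the range of the other group. The change was -1.64 ± 0.44 (adjusted p = 0.0092), and -2.08 without cold control arrays 1 and 2. At room temperature its change of -1.13 ± 0.44 did not pass the test (adjusted p = 0.0609), although the groups did not overlap.

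Peroxins of several steps were lower in these mice. Pex16 had levels of 3.56, 3.57, 2.95 and 3.32 in mice labelled Pparg knockout in the cold, against 5.25, 4.81, 4.11 and 4.68 in cold controls. At room temperature it had 2.57, 2.58, 2.46 and 2.39 in mice labelled Pparg knockout, against 3.76, 4.14, 4.08 and 4.20 in controls. Groups overlapped at neither temperature, and the changes were -1.36 ± 0.20 and -1.54 ± 0.20 (adjusted p = 0.000145 and 4.67e-05). The receptor Pex5 changed by -1.32 ± 0.10 in the cold (adjusted p = 4.52e-07) and -0.91 ± 0.10 at room temperature (adjusted p = 8.02e-06), and the receptor Pex7 fell by 0.50 and 0.44.
The other peroxins that fell at both temperatures were Pex19 (by 1.30 in the cold and 1.11 at room temperature), Pex3 (by 1.03 and 1.06), Pex11g (by 0.90 and 1.25), Pex13 (by 0.86 and 0.81) and the ATPase subunit Pex6 (by 0.96 and 0.68). The other Pex6 probe differed by -0.80 in the cold and -0.26 at room temperature. The other Pex13 probe, well above background on 16 arrays, differed by -0.17 and -1.12. Pex11a fell by 0.74 in the cold and did not pass the test at room temperature (-0.31, adjusted p = 0.0719). The ligase subunits Pex10 and Pex2 fell in the cold by 0.46 and 0.34 and had no call at room temperature. The Pex2 call was lost under 10 of 26 alternatives. Pex26 passed the test at neither temperature.
Among the enzymes and transporters, Abcd3 fell by 1.32 in the cold and 1.24 at room temperature, Scp2 by 1.24 and 1.03, and Crat by 1.14 and 0.93. Hsd17b4 fell by 0.90 and 0.92, Amacr by 0.83 and 1.12, and Hacl1 by 0.85 and 0.62, while Phyh had no call at either temperature. In the ether lipid pathway Gnpat fell by 0.57 in the cold and 0.55 at room temperature, and Agps had no call (-0.15 and 0.13).

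A few enzymes and 1 transporter rose. Pecr, an enoyl-CoA reductase, had levels of 5.49, 5.22, 4.27 and 4.39 in mice labelled Pparg knockout in the cold, against 3.58, 4.05, 3.15 and 3.22 in cold controls. At room temperature it had 4.51, 4.57, 4.52 and 4.04 in mice labelled Pparg knockout, against 2.24, 2.39, 2.62 and 2.95 in controls. Groups overlapped at neither temperature, and the changes were 1.34 ± 0.28 and 1.86 ± 0.28 (adjusted p = 0.00161 and 0.000135). Abcd2 rose at room temperature by 2.48 (adjusted p = 1.51e-05), with levels of -2.36 to -1.85 in mice labelled Pparg knockout and -5.30 to -4.19 in controls. Only 1 of those 4 control arrays measured it well above background, so the size of this rise is not firm. Ech1 rose at room temperature by 0.53 (adjusted p = 0.00572). Catalase and Acaa1a rose there by 0.54 and 0.27, and lost the call under 11 of 25 and 11 of 25 alternatives.

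**Figure D4:**
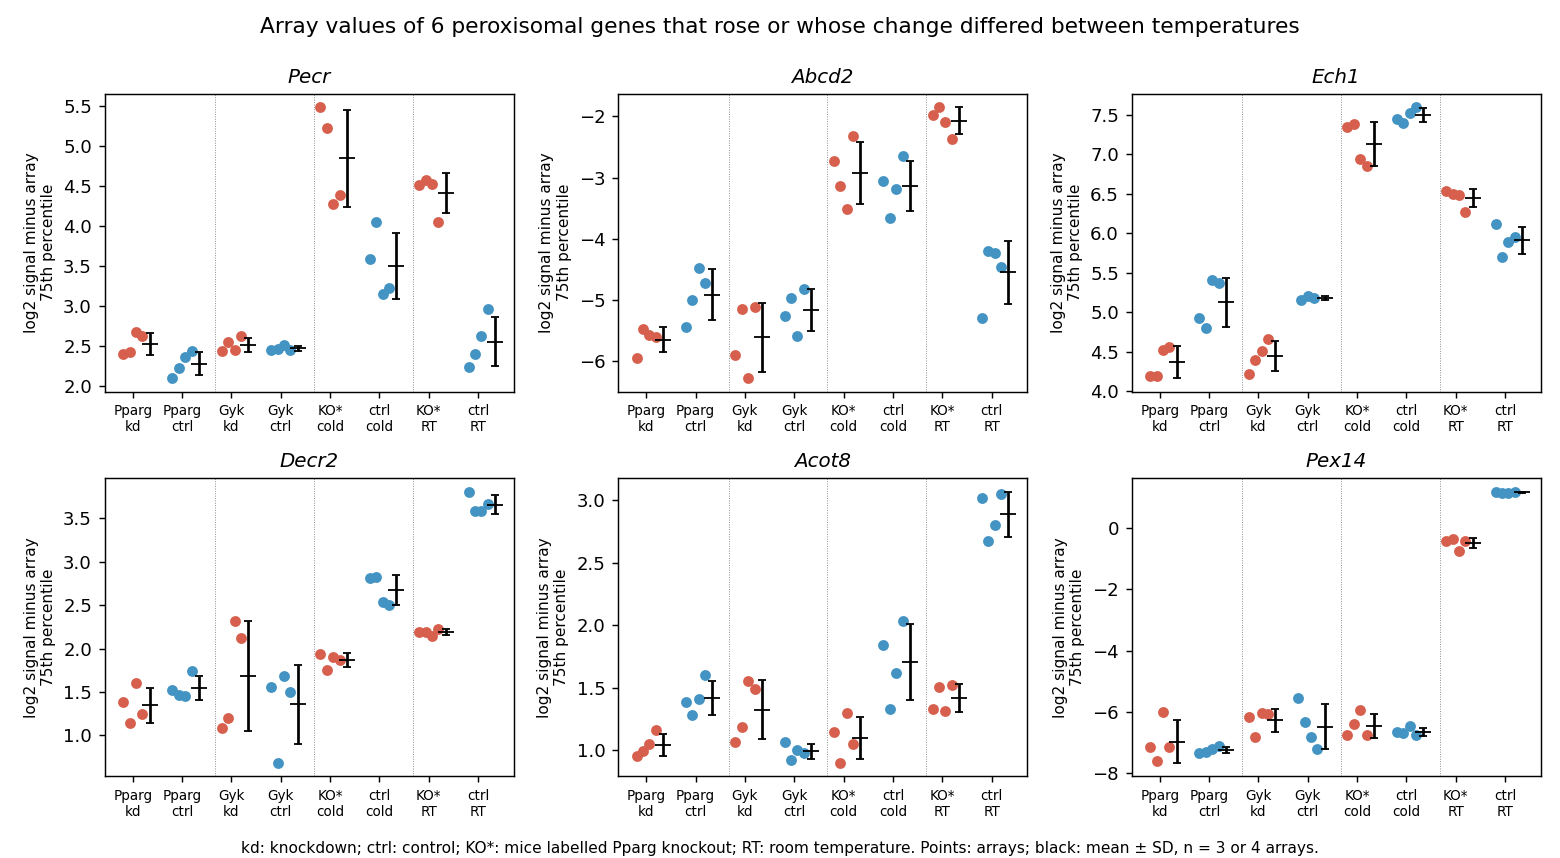
Level (y axis, log2 signal minus the array's 75th percentile) of 6 genes on each array (points) in the 8 groups (x axis), with the mean and SD. Pecr is higher on every array labelled Pparg knockout than on its controls at both temperatures, and Pex14 lies at -5.53 or lower in every group but those of mice at room temperature.

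The change in mice labelled Pparg knockout differed between cold and room temperature for 7 of 34 genes, where 13.4% of all genes were called, 7.24% with a negative difference. Of the 7, 4 were negative and 3 positive, the positive ones including Pex14, which was not well above background on any cold array. Ech1 had levels of 7.35, 7.39, 6.95 and 6.85 in mice labelled Pparg knockout in the cold, against 7.44, 7.40, 7.53 and 7.60 in cold controls, and 6.53, 6.50, 6.48 and 6.28 in mice labelled Pparg knockout at room temperature, against 6.11, 5.70, 5.89 and 5.95 in controls. It was lower on every labelled array in the cold and higher on every labelled array at room temperature. In the cold the gap was small on the slide of arrays 1 and 2, at 7.35 and 7.39 against 7.44 and 7.40 in controls. On the slide of arrays 3 and 4 the values were 6.95 and 6.85 against 7.53 and 7.60. The changes at the 2 temperatures differed by -0.90 ± 0.19 (adjusted p = 0.0079). The fall in the cold taken alone (-0.36) lost its call under 13 of 26 alternatives. Acaa1a showed the same order, with a fall of 0.36 in the cold, a rise of 0.27 at room temperature and a difference of -0.64 ± 0.14 (adjusted p = 0.00949). Acaa1b fell by 0.51 and 0.37, and its call at room temperature was lost under 10 of 25 alternatives. The probes of these near-identical genes thus went opposite ways at room temperature, although each may still read part of the other transcript.
Decr2, a dienoyl-CoA reductase, and Acot8 fell less in the cold. Decr2 fell by 0.81 in the cold and 1.47 at room temperature, a difference of 0.67 ± 0.13 (adjusted p = 0.00685). Acot8 fell by 0.61 and 1.47, a difference of 0.87 ± 0.21 (adjusted p = 0.0152). The changes of Abcd2 were 0.22 in the cold and 2.48 at room temperature, a difference of -2.26 ± 0.40 (adjusted p = 0.00354), with the limit given above. Acox3 fell by 0.72 and 0.28, and the call of the difference (-0.44) was lost under 18 of 26 alternatives.
Pex14, a docking factor, was called with a difference of 1.84, but its probe was not well above background on any cold array, so no change was measured there. At room temperature it had levels of -0.41, -0.36, -0.74 and -0.42 in mice labelled Pparg knockout, against 1.18, 1.15, 1.15 and 1.18 in controls. The groups lay apart, and the change was -1.65 ± 0.16 (adjusted p = 2.43e-06).

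**Figure D5:**
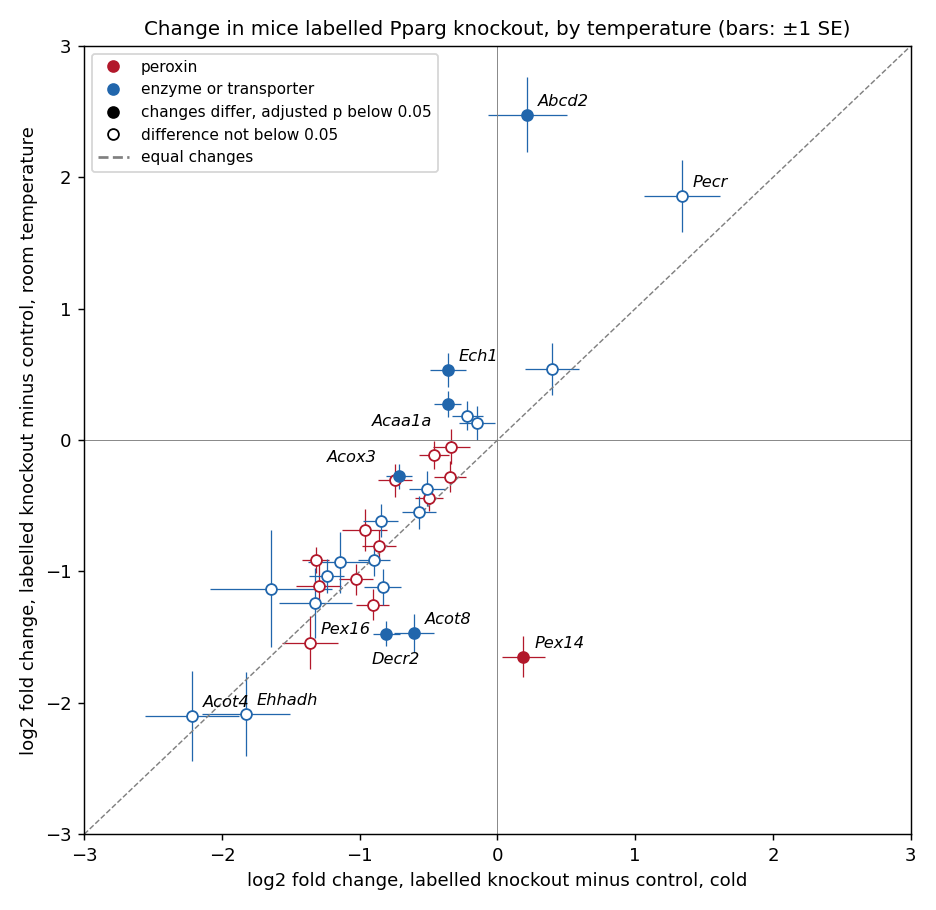
Log2 fold change in mice labelled Pparg knockout against controls in the cold (x axis) and at room temperature (y axis) for 34 genes, with standard errors as bars and filled points where the 2 changes differ with adjusted p below 0.05. Most genes lie below 0 on both axes, and the 7 filled points are Pex14, Abcd2, Ech1, Acaa1a, Acox3, Decr2 and Acot8. Pex14 was not well above background on any cold array.

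Cold and room-temperature arrays lay on different slides and were scanned on different days, so temperature, slide and scan day cannot be told apart, and 66.7% of all genes were called between them in controls and 65.5% in mice labelled Pparg knockout. Of 34 peroxisome genes, 17 were higher in cold controls than in room-temperature controls and 7 lower, where 41.6% of all genes were higher and 25.1% lower (median 0.355, against 0.23 over all genes). In mice labelled Pparg knockout 11 were higher in the cold and 9 lower, where 40.9% of all genes were higher and 24.6% lower (median 0.235, against 0.232). These shares of called genes are near those of all genes. In both counts the lower genes include Pex14, whose probe was not well above background on any cold array. In controls Ech1 was higher in the cold by 1.58, Acaa1a by 1.28, Acaa1b by 1.24 and Pex6 by 1.14, while Acot8 and Decr2 had changes of -1.18 and -0.99. The other probes of Pex6 and Acot8 differed by 0.81 and -0.55. Without cold control arrays 1 and 2, 20 genes were called in controls, and Pex16, Pex13, Pecr, Crat and Agps were no longer among them. In mice labelled Pparg knockout Pex11g was higher in the cold by 1.15, Acaa1b by 1.10, Pex6 by 0.86, Pex16 by 0.85 and Pex3 by 0.85, while Acot4 had a change of -0.98. The other Pex6 probe differed by only 0.27 there. Abcd2 was also called, but only 1 room-temperature control array measured it well above background. Its difference in controls was 1.41, with 0.388 to 1.9 over the alternatives, and in mice labelled Pparg knockout it was -0.85, with -1.05 to -0.117, and the calls were lost under 1 of 26 and 2 of 26 alternatives.
Pex14 was at least 59.5-fold lower in cold controls and at least 18.5-fold lower in cold mice labelled Pparg knockout than at room temperature, taking as the dim signal of each array the higher of its own value and the lowest signal called well above background. The gene entered the fit only through its room-temperature arrays, so no p-value is given.

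The 2 classes were also set side by side. The median of the enzymes and transporters minus that of the peroxins was 0.11 with Pparg knockdown (0.18 and 0.03 on the separate slides) and -0.11 with Gyk knockdown (-0.10 and -0.08). It was 0.145 in mice labelled Pparg knockout in the cold (-0.06 and 0.25) and 0.19 at room temperature (0.164 and 0.245). The sign differed between slides in the cold, and with Gyk knockdown it turned to 0.0681 with the mean of the probes of a gene, to 0.0777 without knockdown array 1 and to 0.0383 without knockdown array 4. These differences are descriptions without a test.

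Other genes of lipid oxidation give the setting. Over all genes tested, 16% fell and 18.1% rose with Pparg knockdown, and 4.11% fell and 4.65% rose with Gyk knockdown. In mice labelled Pparg knockout 22.4% of them fell and 15.9% rose in the cold, and 19.7% fell and 15.2% rose at room temperature. Of 17 genes of mitochondrial fatty acid oxidation, 16 fell with Pparg knockdown (median -1.09) and 4 with Gyk knockdown (median -0.33). In mice labelled Pparg knockout 15 fell and 1 rose in the cold (median -0.94), and 8 fell and 1 rose at room temperature (median -0.41). The gene that rose was Cpt1a, the entry enzyme for long-chain fatty acids, by 1.48 in the cold and 1.31 at room temperature. Of 10 receptors and coactivators tested with Pparg knockdown, 6 fell, Pparg among them (median -1.04). Of the same 10, 2 fell with Gyk knockdown (median -0.23), 3 fell and 1 rose in mice labelled Pparg knockout in the cold (median -0.134), and 6 fell and 1 rose at room temperature (median -0.593). Ppara, the receptor best known for driving peroxisomal genes in liver, changed by -1.48 ± 0.09 with Pparg knockdown (adjusted p = 7.05e-06), by -0.85 ± 0.20 with Gyk knockdown (adjusted p = 0.0442, without knockdown array 1, whose spot was outlying), by -2.17 ± 0.24 in mice labelled Pparg knockout in the cold (adjusted p = 1.09e-05) and by -2.51 ± 0.24 at room temperature (adjusted p = 2.32e-06). In none of these comparisons did the groups overlap.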

How the data were processed

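RNA of 32 samples was measured on one-colour Agilent arrays, 4 per group. Per the file headers, Agilent Feature Extraction 10.7.3.1 subtracted background and a spatial trend from the deposited intensity of each spot, with no step across arrays. The 75th percentile of intensity ran from 141.3 to 806.3, and the number of arrays limits the precision. Here intensities were log2-transformed, each array's 75th percentile was subtracted, and 1377 control spots and 101 to 247 outlying spots per array were left out. Accessions matched through RefSeq annotation (GRCm38.p6) named 27234 of 39429 probes (69.1%). Genes well above background on 4 or more arrays of a fit entered the tests, which were 2-sided and used limma 3.58.1 (R 4.3.3, data.table version 1.17.8). Benjamini-Hochberg adjustment ran over every gene of a fit, and 0.05 was the threshold. The 4 mouse groups shared a fit, each knockdown had its own, and a fit of all culture groups tested the difference between knockdowns. All 35 genes are accounted for. The 8 largest calls per comparison and the partners in each pathway are given with values. Members and lists were chosen with earlier results of these data known.

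Residuals of same-numbered arrays correlated at 0.703 to 0.767 in the Pparg knockdown experiment, which passed the criterion for pairing, although other numbers correlated as highly. There arrays 1 and 2 of both groups shared a slide, as did arrays 3 and 4. Pairing by number and a shared slide therefore cannot be told apart. In the other experiments the numbers did not pair the arrays. On simulated data the fit recovered 78% of genes changed by 1 log2 unit in the Pparg knockdown design (12792 genes) and 38% in the Gyk knockdown design (12060 genes), and 25% and 6% of those changed by 0.5 log2 units. False calls made up 2.83% of simulated calls in the Pparg knockdown design and 6.38% in the Gyk knockdown design. For mice labelled Pparg knockout they made up 1.2% in the cold and 6.48% at room temperature. For cold against room temperature they made up 9.89% in controls and 3.49% in mice labelled Pparg knockout. The simulation drew independent noise for each gene and array and changed only a small share of genes. In the data 34.1% of genes were called with Pparg knockdown and 8.76% with Gyk knockdown, so these simulated shares may not hold there. Alternatives covered background correction, normalization, filter, probe choice, outlying spots, prior, slide and replicate blocks, and left-out arrays. Leaving out the low-signal Gyk knockdown arrays, their slide, or cold control arrays 1 and 2 was chosen after seeing the data.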

Additional observations from a re-analysis of the deposited data

Results flagged for a closer look

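Of 272 sets of 4 arrays (34 genes in 8 groups), 11 had 1 array far from the other 3 by Dixon's criterion, where chance alone gives about 1 in 20. On Gyk knockdown arrays these were Pex7 on array 3 at -1.55, Acox3 on array 4 at 0.315, Acaa1a on array 1 at 5.72 and Pex14 on array 2 at -6.82, the last not well above background. On Gyk control arrays they were Pex13 on array 1 at 3.46, Pex19 on array 4 at 3.22 and Acot4 on array 1 at -5.9, the last not well above background. In mice they were Phyh at 5.36 on array 4 of those labelled Pparg knockout in the cold, Phyh at 5.57 on array 2 of the cold controls, an array of high muscle markers, Pecr at 4.04 on array 4 of those labelled Pparg knockout at room temperature, and Hacl1 at 2.67 on array 1 of the room-temperature controls.

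The change in mice labelled Pparg knockout differed between cold and room temperature, by the test of the difference itself, for 7 genes. The difference was -2.26 for Abcd2, -0.895 for Ech1, -0.636 for Acaa1a, -0.44 for Acox3, 0.669 for Decr2, 0.865 for Acot8 and 1.84 for Pex14. Ech1 kept the call under all 26 alternatives, Acox3 lost it under 18, and Abcd2, Acaa1a, Decr2 and Acot8 each lost it under 1. The Pex14 value rests on cold arrays where the probe was not well above background. No change was measured for it in the cold, so keeping its call under all 26 alternatives adds no support.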

How the results depend on the processing

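No call turned its direction under any alternative run. Under every alternative the call was kept by 19 of 22 genes with Pparg knockdown, 0 of 4 with Gyk knockdown, 23 of 28 in mice labelled Pparg knockout in the cold and 22 of 27 at room temperature. With Gyk knockdown, 4 genes were called, against 0 with normexp background (11 lower and 2 higher at an unadjusted limma p under 0.05, which 17.8% of all genes passed), 1 without a filter on dim probes, 7 with the slide as a block, 1 with the replicate number as a block, and 0 without the slide of the low-signal arrays. Leaving out each array in turn gave 1 to 6: 1 without control array 1, 3 or 4, 2 without control array 2 or knockdown array 3, 6 without knockdown array 2. With normexp, 2 genes instead of 7 differed between temperatures and 4 instead of 10 between the knockdowns. The replicate block moved no other total of calls among these genes by over 1.5 times, although with Pparg knockdown 2 genes rose under it instead of 1.

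The enzyme minus peroxin median with Pparg knockdown was 0.164 with quantile normalization and 0.149 with probe means, and 0.0594 to 0.196 with arrays left out. With Gyk knockdown it was -0.171 with normexp, 0.0681 with probe means and -0.177 with outlying spots kept, and -0.143 to 0.0777 with arrays left out. In mice labelled Pparg knockout it was 0.264 with normexp and 0.0575 with quantile normalization in the cold, and 0.097 with quantile normalization and 0.297 with probe means at room temperature. Between temperatures it was -0.363 in controls, against -0.26 with normexp and -0.401 to -0.161 with arrays left out, and 0.0385 in mice labelled Pparg knockout, against -0.124 with normexp, -0.0779 with probe means and -0.0828 to 0.114 with arrays left out. The cause was not tested.

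Over all genes, 4375 calls with Pparg knockdown became 7596 with the slide block and 7407 with the replicate block. With Gyk knockdown 1070 became 259 with normexp, 447 without a filter, 111 with the replicate block, 0 without the slide of the low-signal arrays (2208 at an unadjusted limma p under 0.05), 371, 331, 294 and 343 without control array 1, 2, 3 and 4, and 632 without knockdown array 4. At room temperature 4904 became 2399 with normexp and 30.2% of calls were rises without a filter, against 43.6%. Calls of the difference between temperatures were 610 with normexp and 1240 without array 1 of mice labelled Pparg knockout at room temperature, against 1879, and 32.3% of those with normexp were positive, against 45.8%. Calls of the difference between knockdowns were 865 with normexp and 2999 with the slide block, against 1631. Normexp put the median of all genes at 0.104 in the cold comparison of mice labelled Pparg knockout, and that of the 34 genes at -0.916. Probes near background, such as those of Abcd2 and Pex14, limit what can be measured.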

Other observations

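Of 53 other peroxisomal genes, 19 of 41 tested fell and 1 rose with Pparg knockdown, where 16% of all genes fell and 18.1% rose. With Gyk knockdown 4 of 38 fell, where 4.11% of all genes fell. In mice labelled Pparg knockout 30 of 46 fell and 3 rose in the cold, and 20 fell and 9 rose at room temperature. Over all genes 22.4% fell and 15.9% rose in the cold, and 19.7% fell and 15.2% rose at room temperature. Pipox, the oxidase of pipecolic acid, rose in each Pparg comparison. It averaged -1.15 ± 0.15 in Pparg knockdown cells and -3.59 ± 0.18 in their controls (SD, n = 4 each), a change of 2.44 ± 0.12 (adjusted p = 1.99e-06). In the cold it averaged -0.35 ± 0.35 in mice labelled Pparg knockout and -4.53 ± 0.90 in controls (SD, n = 4 each), where 3 of 4 control arrays measured it well above background.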
